A study of Mus musculus with 41 samples.

Results

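The enhancers that lie upstream of *Il1b* and *Il6* were examined in mouse bone marrow-derived macrophages (BMDM) by bisulfite amplicon sequencing (BS-seq). All CpGs with at least 100 reads in every BMDM sample within chr2:129236157-129236409, near *Il1b*, and chr5:30299463-30299777, near *Il6*, were taken (mm9, plus strand), which gave 5 CpGs in each enhancer. These 10 CpGs were all those that the genome sequence of both amplicons holds, and they stood among 40 CpGs of 8 amplicons of the macrophage libraries and 249 CpGs covered by at least 100 reads in any sample of the series. The study compared DNA modification in T cells and macrophages and comprised 41 samples, 6 of which were BMDM.

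The BMDM came from wild type C57BL/6 mice, adult by the study's methods and of a sex that the labels do not give, and were grown from marrow in medium with L929-conditioned supernatant and M-CSF. The groups were cells at 0 h, 6 h and 24 h of treatment with KLA, a lipid A agonist of the endotoxin receptor TLR4, with a pair of samples per time point. The labels number the samples of a time point as replicates 1 and 2, but both carry the same library name, and they are taken here as run 1 and run 2 of that library. On this reading there was 1 library per time point and no biological replicate, and the labels name no animals. No gene expression or marker was measured in these samples, so the cell type rests on the labels.

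*Il1b* encodes interleukin-1β and *Il6* encodes interleukin-6, secreted cytokines of acute inflammation that macrophages switch on after contact with bacterial endotoxin through NF-κB and other stimulus-dependent factors. Enhancers are stretches of DNA, often far from the gene, where such factors bind. In mammals the cytosine of a CpG is commonly methylated (5mC), active enhancers tend to carry less of this mark than the rest of the genome, and TET enzymes oxidise 5mC to 5hmC and further to 5fC and 5caC. Bisulfite turns C, 5fC and 5caC into bases read as T, whereas 5mC and 5hmC are read as C, so the level given here is 5mC + 5hmC as a percentage of reads with C or T. A loss of 5mC that is matched by a gain of 5hmC therefore leaves this level as it was. The comparison over time asks whether stimulated macrophages lost or gained 5mC + 5hmC at these enhancers. The paper describes BMDM as no longer dividing once stimulated with endotoxin, for a time frame of 6 h. Division was not measured in these samples.

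The *Il1b* amplicon was 253 bp long and overlapped no annotated gene or exon. *Il1b* itself (ENSMUSG00000027398.7) lies at chr2:129190306-129196875 on the minus strand, and the amplicon starts 39282 bp upstream of its 5′ end. The nearest annotated gene was the pseudogene *Gm14045* at a distance of 31025 bp, and *Il1b* was the nearest protein-coding gene, followed by *F830045P16Rik* at 47686 bp on the other side. The *Il6* amplicon was 315 bp long and also intergenic. *Il6* (ENSMUSG00000025746.7) lies at chr5:30339701-30346508 on the plus strand, its 5′ end is 39924 bp from the amplicon, and it was the nearest gene of any kind, with *Tyms* next among protein-coding genes at 84965 bp. Both enhancers thus sit upstream of the gene they are named for, at a similar distance.

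The stretches between the primers are shown because they hold every CpG measured. They are the plus strand of mm9, chr2:129236182-129236384 for *Il1b* (203 bases) and chr5:30299488-30299752 for *Il6* (265 bases), with each CpG in capitals.
Il1b enhancer: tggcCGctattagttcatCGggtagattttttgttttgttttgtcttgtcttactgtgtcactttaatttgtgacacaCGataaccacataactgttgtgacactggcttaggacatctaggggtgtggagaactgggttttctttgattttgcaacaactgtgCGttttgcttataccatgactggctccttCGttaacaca
Il6 enhancer: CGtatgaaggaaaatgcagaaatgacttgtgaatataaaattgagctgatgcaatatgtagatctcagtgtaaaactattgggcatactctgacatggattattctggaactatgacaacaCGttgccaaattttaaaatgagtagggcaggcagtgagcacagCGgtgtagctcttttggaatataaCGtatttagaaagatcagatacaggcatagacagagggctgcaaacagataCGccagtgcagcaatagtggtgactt
The first CpG of the *Il6* enhancer directly follows the forward primer. CpG1 and CpG2 of *Il1b* are 14 bp apart and CpG3 and CpG4 of *Il6* 24 bp, the closest pair in each enhancer. The widest gap was 86 bp in *Il1b*, between CpG3 and CpG4, and 121 bp in *Il6*, between CpG1 and CpG2. Both amplicons were poor in CpG, with an observed over expected ratio of 0.441 in *Il1b* and 0.442 in *Il6* and a G + C content of 42.7% and 39.7%. In the other 6 amplicons the ratio ran from 0.255 in *Alcam* to 0.513 in *Ptgs2*, so both lay within that range.

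The primers were designed for converted DNA and are shown because they fix which strand and which molecules were read.
IL1b_BS-F: ttaatgagttagtttggtgtgttgg
IL1b_BS-R: cctatatataacacttccatacatt
IL6_BS-F: tgtggttgtgtttagtgtagtatta
IL6X_BS-R: aactcattcataaactactactcta
In each forward primer every cytosine of the plus strand appears as t, so that templates whose non-CpG cytosines had been converted were amplified, and no primer site holds a CpG.

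The median number of reads per CpG in the *Il1b* enhancer lay between 4800 in run 2 at 6 h and 6440 in run 1 at 6 h. The *Il6* enhancer was read less deeply, with medians between 1399 in run 2 and 2655 in run 1, both at 6 h. No CpG of either had fewer than 1394 reads in a run. Intervals below are 95% Wilson intervals for levels and intervals built from them (Newcombe) for differences at single CpGs, on the reads of both runs added together. For the mean of an amplicon the interval is a normal one around the mean of runs, with the binomial standard errors of the CpGs averaged as if all erred together. Such intervals reflect counting error alone, since several PCR reads can stem from the same molecule and no molecular identifiers were used to tell.

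Cytosines outside CpGs, which carry little 5mC in such cells and so report on bisulfite conversion, were read as C in 0.176% to 0.220% of reads over the 33 such positions of *Il1b* and in 0.144% to 0.202% over the 35 of *Il6*, across the 6 runs. The highest value at a single such position in any run was 0.754% in *Il1b* and 0.888% in *Il6*. All CpG levels were far above these.

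In the *Il1b* enhancer the level was graded along the amplicon, highest at CpG1. Averaged over the 3 libraries it was 70.4% at CpG1, 51.5% at CpG2, 37.9% at CpG3, 31.2% at CpG4 and 35.2% at CpG5. The order CpG1, CpG2, CpG3, CpG5, CpG4 held in 6 of 6 runs, and the ranges over runs of neighbours in this order did not overlap. The step from CpG1 to CpG2 was 18.9 points over 14 bp and that from CpG2 to CpG3 13.6 points, whereas CpG3 and CpG5 differed by 2.75 points, with separate intervals in 4 of 6 runs.

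In the *Il6* enhancer the gradient ran the other way along the plus strand. The averages were 31.5% at CpG1, 57.0% at CpG2, 94.1% at CpG3, 91.1% at CpG4 and 94.3% at CpG5. CpG4 exceeded CpG2 by 34.0 points and CpG2 exceeded CpG1 by 25.5 points in 6 of 6 runs. CpG5 and CpG3 could not be ordered: they differed by 0.196 points, and CpG5 was the higher in 3 of 6 runs. CpG3 was above CpG4 in 6 of 6 runs, but their ranges over runs overlapped and their intervals were separate in 3 of 6 runs.

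Because *Il1b* lies at lower coordinates than its enhancer and *Il6* at higher ones, the CpG nearest to the gene was the highest in *Il1b* (CpG1) and shared the top level in *Il6* (CpG5 with CpG3). The lower levels were at the far side, in CpG3 to CpG5 of *Il1b* and CpG1 of *Il6*. This is a description of one amplicon per gene.

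Among CpGs of 1 amplicon the mean levels spanned 39.2 points in *Il1b* and 62.8 points in *Il6*. Of the other 6 amplicons, *Batf* spanned more, with 80.9 points between 11.3% and 92.2%, and the rest spanned between 3.09 points in *Mdfic* and 21.4 points in *Ptges*. The mean over all CpGs and libraries was 45.3% in *Il1b*, the lowest of the 8 amplicons, and 73.6% in *Il6*. Among the other 6 amplicons, *Batf* (56.3%) and *Ptges* (87.1%) were the nearest to both in mean level over the 3 libraries. Their distances were 11 and 41.9 points from *Il1b* and 17.3 and 13.5 points from *Il6*. *Batf* codes for an AP-1 family transcription factor and *Ptges* for a prostaglandin E synthase. The amplicons at *Ptgs2*, *Alcam* and *Mdfic* had means between 91.2% and 92.1%.

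**Figure D1:**
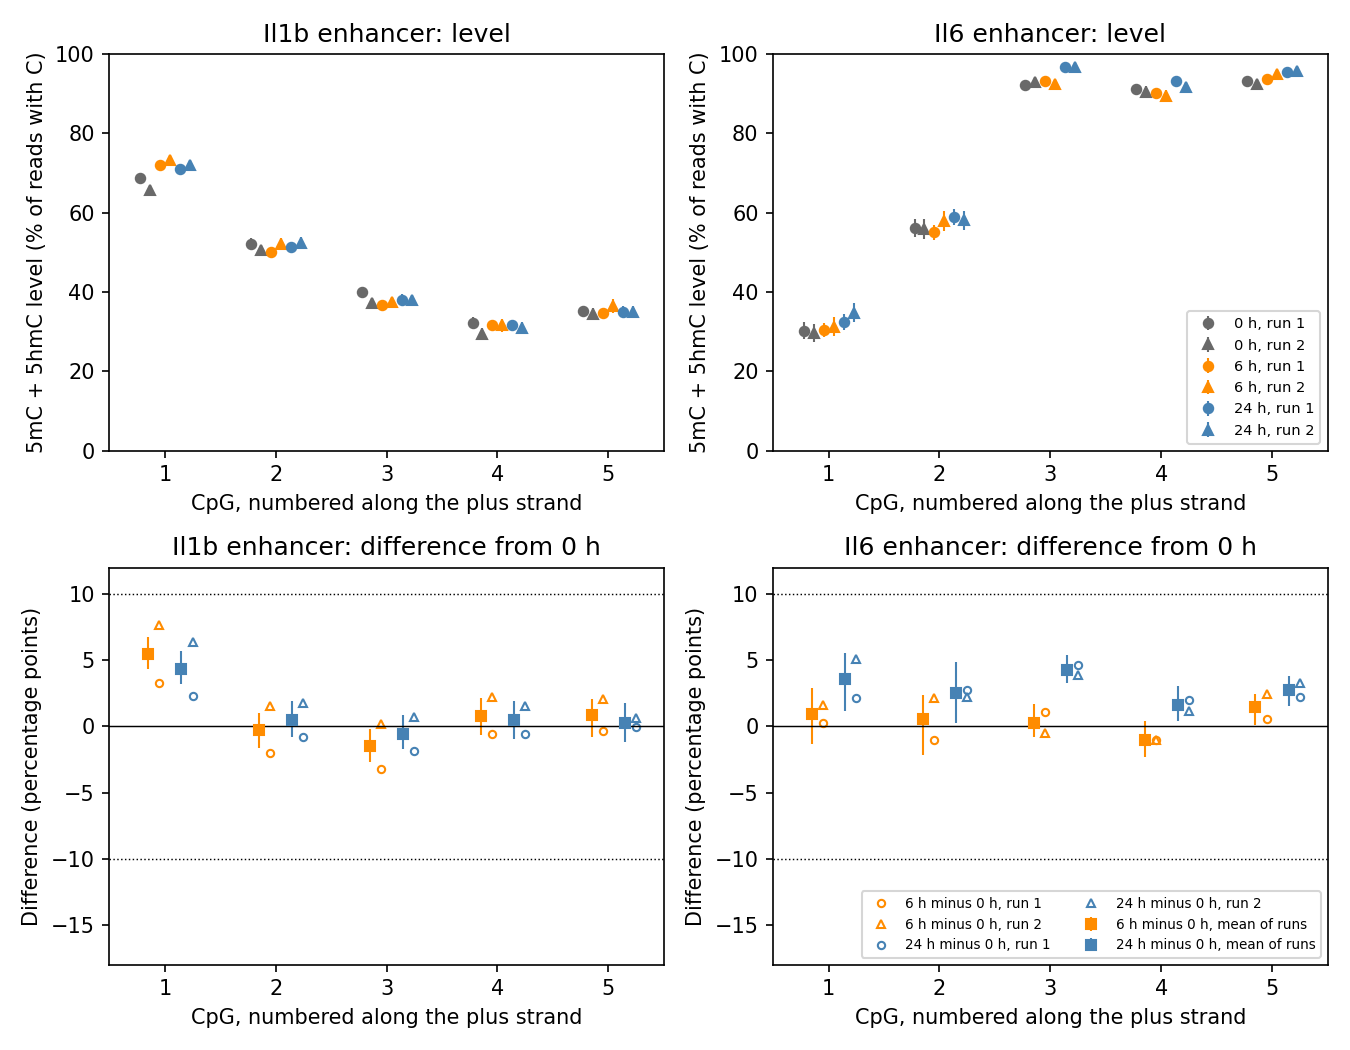
Upper panels show the 5mC + 5hmC level (% of reads with C) of each CpG of the *Il1b* and *Il6* enhancers at 0, 6 and 24 h, with a point per sequencing run (circles run 1, triangles run 2) and 95% Wilson intervals, many of them smaller than the point. Lower panels show the difference from 0 h in percentage points as the mean of both runs (squares, with 95% Newcombe intervals of the summed reads) and in each run (open symbols), with dotted lines at the 10 points that a call required; all 10 CpGs lie inside these lines, and the 5 *Il6* CpGs are between 1.61 and 4.29 points higher at 24 h.

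Time points were compared per CpG with Fisher's exact test, two-sided, on the reads of both runs added together, with Benjamini-Hochberg adjustment over the 40 CpGs. A call required an adjusted p under 0.05 and a difference of at least 10 points. With 1 library per time point the test compares libraries and not conditions, and differences in culture, conversion or PCR cannot be told apart from the time of stimulation.

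No CpG of *Il1b* or *Il6* was called in any of the 3 comparisons. At 6 h against 0 h, 0 of 40 CpGs were called (0% of those tested), and 0% were called at 24 h against 0 h. At 24 h against 6 h 1 of 40 was called (2.50%), CpG5 of *Batf* at chr12:87007653, which was lower at 24 h by 10.2 points in size. The largest difference at an *Il1b* or *Il6* CpG was 5.48 points, at CpG1 of *Il1b*. limma, which here counts runs as replicates, gave 0, 0 and 1 CpGs under the same minimum, which only 1 CpG reached. At an unadjusted p under 0.05 and with no minimum difference, Fisher's exact test gave 3 of the 10 CpGs at 6 h against 0 h, 6 at 24 h against 0 h and 5 at 24 h against 6 h, and 21, 29 and 25 of all 40 CpGs.

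With no minimum difference, an adjusted p under 0.05 was common over the whole table. At 6 h against 0 h, 25% of the 40 CpGs passed with a higher level and 20.0% with a lower level. At 24 h against 0 h these shares were 32.5% and 37.5%, and at 24 h against 6 h they were 32.5% and 30.0%. Against this, 1 of 5 *Il1b* CpGs passed with a higher level at 6 h and 1 of 5 at 24 h relative to 0 h, and 0 of 5 between 6 h and 24 h. In *Il6*, 0 of 5 CpGs passed at 6 h against 0 h and 5 of 5 passed with a higher level at 24 h, against 0 h as well as against 6 h. No CpG of either enhancer passed with a lower level. The CpGs of an amplicon are read on the same molecules, so the 5 of *Il6* are not 5 independent results.

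CpG1 of *Il1b* (chr2:129236186) showed the largest difference among the 10 CpGs. Its level was 68.7% in run 1 and 65.7% in run 2 at 0 h, 72.0% and 73.3% at 6 h and 71.0% and 72.0% at 24 h, from at least 4800 reads each. All 4 runs of stimulated cells were above both runs at 0 h. The difference was 5.48 points at 6 h (interval 4.31 to 6.74, adjusted p = 6.03e-18, Fisher's exact test) and 4.33 points at 24 h (interval 3.23 to 5.72, adjusted p = 1.47e-11, Fisher's exact test). It depended on the run, with 3.28 points in run 1 and 7.68 in run 2 at 6 h, and 2.31 and 6.36 points at 24 h. The 0 h runs differed from each other by 3.03 points at this CpG, the widest gap between runs among the 10 CpGs.

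The other 4 CpGs of *Il1b* differed little between time points. CpG2 (chr2:129236200) was at 51.4% at 0 h, 51.2% at 6 h and 51.9% at 24 h as the mean of both runs. CpG3 (chr2:129236260) was at 38.6%, 37.1% and 38.0%, and the 1.49 points by which it was lower at 6 h had an adjusted p of 0.0572 by Fisher's exact test. CpG4 (chr2:129236346) was at 30.8%, 31.6% and 31.3%, and CpG5 (chr2:129236375) at 34.8%, 35.6% and 35.1%. At each of these 4 the runs of 6 h and of 0 h overlapped, as did those of 24 h and 0 h. Their intervals ran from -2.67 to 2.14 points for 6 h against 0 h and from -1.71 to 1.94 points for 24 h against 0 h. Single runs went beyond these or turned the sign, as at CpG3, where 6 h differed from 0 h by -3.20 points in run 1 and 0.223 in run 2 and 24 h by -1.84 and 0.708.

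The mean over the *Il1b* CpGs was 45.6% in run 1 and 43.5% in run 2 at 0 h, 45.0% and 46.2% at 6 h and 45.4% and 45.7% at 24 h. The runs overlapped between all time points. The difference was 1.08 points at 6 h (interval -0.242 to 2.41) and 1.02 points at 24 h (interval -0.330 to 2.37), relative to 0 h. It had opposite signs in the runs, -0.585 in run 1 and 2.75 in run 2 at 6 h, and -0.184 and 2.22 at 24 h. At 24 h the mean differed from 6 h by -0.0649 points (interval -1.39 to 1.26), with 0.401 in run 1 and -0.531 in run 2. The 0 h library was the one with the wider spread, with a gap of 2.16 points between its runs against 1.18 at 6 h and 0.249 at 24 h.

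In the *Il6* enhancer the 24 h library stood above the others at each CpG. CpG3 (chr5:30299652) had the largest difference, with levels of 92.2% in run 1 and 92.9% in run 2 at 0 h, 93.3% and 92.4% at 6 h and 96.8% in both runs at 24 h. It was higher at 24 h than at 0 h by 4.29 points (interval 3.25 to 5.42, adjusted p = 7.50e-15, Fisher's exact test) and than at 6 h by 4.00 points (interval 2.91 to 4.84, adjusted p = 1.45e-14, Fisher's exact test). The runs at 0 h and 6 h overlapped, and both runs at 24 h lay above all 4 of them.

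CpG1 of *Il6* (chr5:30299488), the lowest of this enhancer, was at 30.3% and 29.7% at 0 h, 30.5% and 31.3% at 6 h and 32.4% and 34.8% at 24 h in run 1 and run 2. The 24 h level exceeded that at 0 h by 3.61 points (interval 1.16 to 5.54, adjusted p = 0.00548, Fisher's exact test). CpG2 (chr5:30299609), at 56.1% and 55.8% at 0 h, 55.1% and 58.0% at 6 h and 58.9% and 58.1% at 24 h, was higher by 2.50 points (interval 0.283 to 4.88, adjusted p = 0.0448, Fisher's exact test). For CpG2 the gap between the 6 h runs, 2.90 points, was wider than this difference.

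CpG4 (chr5:30299676) was at 91.2% and 90.5% at 0 h, 90.2% and 89.5% at 6 h and 93.2% and 91.7% at 24 h, a difference of 1.61 points between 24 h and 0 h (interval 0.452 to 3.08, adjusted p = 0.0155, Fisher's exact test). CpG5 (chr5:30299727) was at 93.2% and 92.5% at 0 h, 93.7% and 95% at 6 h and 95.4% and 95.8% at 24 h. It was higher at 24 h than at 0 h by 2.75 points (interval 1.58 to 3.83, adjusted p = 5.91e-06, Fisher's exact test), and its 6 h level of 94.4% lay between the other libraries. At all 5 CpGs of *Il6* both runs at 24 h lay above both runs at 0 h and above both at 6 h. At CpG2 the difference between 24 h and 6 h depended on the run, with 3.82 points in run 1 and 0.0901 in run 2.

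The mean over the *Il6* CpGs was 72.6% in run 1 and 72.3% in run 2 at 0 h, 72.6% and 73.2% at 6 h and 75.4% in both runs at 24 h. It was higher at 24 h than at 0 h by 2.95 points (interval 1.36 to 4.55), with 2.76 points in run 1 and 3.14 in run 2, and than at 6 h by 2.51 points (interval 1.03 to 3.99). The gap between runs was at most 0.677 points, at 6 h. At 6 h the mean differed from 0 h by 0.445 points (interval -1.18 to 2.07), with the runs overlapping. This difference was -0.0443 points in run 1 and 0.935 in run 2. The 24 h library stood apart in another respect, since at 4 other loci, set aside here, 99.8% to 99.9% of reads at cytosines outside CpGs had C, against at most 0.895% at 0 h and 6 h. In the *Il6* amplicon itself this share was 0.202% and 0.185% in the runs at 24 h, 0.178% and 0.165% at 0 h and 0.144% and 0.165% at 6 h. With levels corrected for this share, the mean at 24 h differed by 2.95 points from that at 0 h and by 2.50 points from that at 6 h. A correction by shares this small can hardly change such differences. Whether the *Il6* difference is related to the unconverted loci was not tested.

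Ranges of this size over the time points occurred in other amplicons too, but between other libraries. The mean of *Ptges* was 86.9% at 0 h, 89.1% at 6 h and 85.4% at 24 h, a range of 3.75 points. That of *Alcam* had a range of 2.99 points, against 2.95 in *Il6* and 1.08 in *Il1b*. In *Ptges* and *Alcam* the range lay between 6 h and 24 h, whereas in *Il6* it lay between 0 h and 24 h. For 24 h against 0 h, the mean differences of the other 6 amplicons ran from -1.72 points in *Batf* to 0.275 in *Ptgs2*. At 24 h against 0 h, the median difference over the 30 CpGs of the other 6 amplicons was -1.59 points, with 9 CpGs higher and 21 lower, whereas it was 2.75 points over the 5 CpGs of *Il6*, all higher, and 0.509 points over those of *Il1b*, 4 of them higher. At 6 h against 0 h these medians were 0.687 points for the other amplicons, 0.549 for *Il6* and 0.806 for *Il1b*. The difference in direction between *Il6* and the other amplicons at 24 h was not tested.

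The runs of a library were not told apart beyond sampling noise. Fisher's exact test of run 2 against run 1, adjusted over 40 CpGs and 3 libraries, gave 0 of 120 comparisons with an adjusted p under 0.05, and 5 of 120 at an unadjusted p under 0.05. Of these 5, 4 were in *Il1b*, with 3 at 0 h, where run 2 was lower at each of the 5 CpGs by 0.782 to 3.03 points in size. The median gap between runs was 0.809 points over the 10 CpGs and 3 libraries and 0.682 points over all 40 CpGs.

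Short letter patterns of factors known from macrophages were searched in both amplicons on both strands, with the share of windows of the same length, taken every 10000 bases along chromosomes 2 and 5, that hold each. The NF-κB pattern (GGGA, 4 bases of any kind, CC) did not occur in *Il1b* or in *Il6*, and it occurred in 8.50% and 10.4% of windows of their lengths and in 5 of the 8 amplicons. The AP-1 pattern TGANTCA (7.54% and 9.23% of windows), the PU.1 pattern AGGAAGT (5.98% and 7.42%) and the IRF pattern (GAAA, 2 bases of any kind, GAAA; 4.28% and 5.30%) were likewise not among their letters. They were in 1, 0 and 1 of the 8 amplicons. The C/EBP pattern TTGCNNAA occurred once in each. In *Il1b* it was TTGCAAAA on the minus strand at chr2:129236330-129236337, nearest to CpG4, the CpG with the lowest level of that enhancer. In *Il6* it was TTGCCAAA on the plus strand at chr5:30299611-30299618, directly after CpG2. With a level of 57.0%, CpG2 was not the lowest CpG of *Il6*, which was CpG1 at 31.5%. The C/EBP pattern was in 11.2% and 14.1% of windows and in 4 of the 8 amplicons. A match is a stretch of letters and not a measured binding site, and the lack of one says only that these letters are not in the amplicon.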

How the data were processed

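The authors mapped paired-end reads with BSMAP to mm9 and deposited raw counts per cytosine, with C reads beside the total of C and T reads. From these counts the level per run was computed, with a minimum of 100 reads in each of the 6 BMDM samples. A library's level was the mean of its runs, and its reads were added for Fisher's exact test. Amplicons were found by matching the study's primers to the converted genome (NCBIM37, the same build as mm9), and genes came from GENCODE vM1. Another 43 CpGs at 4 loci with more than 5% C outside CpGs, in both 24 h samples, were set aside. Values of 1 of the 8 amplicons are not reported here on their own. Il1b and Il6 CpGs were all named, along with those of the other amplicons nearest in mean level and any with a called CpG. Members and lists were chosen with earlier results of these data known. Alternatives were the coverage minimum, the minimum difference, each run left out, the run number as a block, limma on log2((C + 1)/(T + 1)), summed or read-weighted levels and a correction for conversion. Python 3.11.15 with scipy 1.17.1, numpy 2.4.6, pandas 2.3.3 and statsmodels 0.14.6, and R 4.3.3 with limma 3.58.1, were used.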

Additional observations from a re-analysis of the deposited data

Results flagged for a closer look

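Reads at both enhancers also occurred in libraries prepared from T cells, where these amplicons were not a target. Of the 35 samples that were not BMDM, 2 held such reads and 33 held none. In replicate 2 of TDG KO Th2 cells of the first cycle a cytosine of the *Il1b* amplicon had up to 9 reads and of the *Il6* amplicon up to 3. Summed over CpGs, 11 of 25 base calls in *Il1b* and 7 of 10 in *Il6* were C. In replicate 2 of TDG WT Th2 cells of the first cycle the most reads at a cytosine were 4 in *Il6* and 2 in *Il1b*, and 10 of 12 and 4 of 6 calls were C. A read can give a call at several CpGs, so these calls come from fewer reads and no interval is given. The 9 reads and the 4 reads were flagged because they exceeded a set cut-off of 3 reads. This cut-off is not a test, and each value is the highest over the cytosines of an amplicon. The origin of these reads was not tested.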

How the results depend on the processing

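Of 108 values under alternative settings, 95 moved neither past 1.5 times a count nor past the counting interval of a mean difference. Part of these could not move, so the share is no measure of robustness. A coverage minimum of 20 reads left the same 40 CpGs, and no CpG of *Il1b* or *Il6* had fewer than 500 reads in a run. As the mean of both runs only 1 CpG reached 10 points, so another test could hardly add calls. The minimum difference moved the counts of called CpGs. With a minimum of 5 points, 3 CpGs were called at 6 h against 0 h (1 of them in *Il1b*), 3 at 24 h against 0 h and 5 at 24 h against 6 h, with none in *Il1b* or *Il6* in the last pair. With no minimum, 18, 28 and 25 CpGs were called, 1, 6 and 5 of them in *Il1b* and *Il6*, and with a minimum of 20 points 0 were called at 24 h against 6 h. These settings change the threshold itself. The mean difference of *Il1b* at 6 h against 0 h ranged from -0.585 to 2.75 points when either run was left out, and the cause was not tested. The *Il6* difference at 24 h ranged from 2.76 to 3.90 points against 0 h and from 2.21 to 3.26 points against 6 h.

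With the run number as a replicate block (Mantel-Haenszel test), 0, 0 and 1 CpGs were called, as without it. Since only 1 CpG reached the minimum of 10 points as the mean of runs, these equal counts say little about the block. The mean differences with the block were 0.955, 1.01 and -0.00538 points in *Il1b* and 0.361, 2.93 and 2.59 points in *Il6* for 6 h against 0 h, 24 h against 0 h and 24 h against 6 h. Same-numbered runs did not deviate together, with correlations of -0.174, -0.107 and 0.0858 over 40 CpGs, so the number was not read as pairing. The *Il6* enhancer was read less deeply than that of *Il1b*, and no alternative adds a biological replicate.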
